A study of Mus musculus with 6 samples.

Results

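The genes described here encode the T cell antigen receptor (TCR) complex and the proteins that act directly behind it in regulatory T (Treg) cells. They are a list of 37 genes chosen by function: receptor chains, the coreceptor, co-stimulatory receptors, kinases, adaptors, effectors, NFAT transcription factors and the proteins that restrain the signal. Of the 37, 36 had a probe set naming that gene alone, out of 19752 genes measured in this way. The kinase gene Lck is not analysed here. By their main described role 23 of the 36 were classed as activating and 10 as inhibitory. The other 3, Cd6, Themis and Ptprc, were classed as dual because both roles have been described for them.

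The 6 arrays held total RNA of Foxp3+ Treg cells, 3 arrays from pancreas and 3 from spleen. Both groups came from female NOD.Foxp3-ires-gfp mice, labelled with the NOD NRB_SFB+ background, which were 10 weeks old and prediabetic, and in which GFP marks cells that express Foxp3. Cells were sorted in both tissues as DAPI-, CD45+, TCRb+, CD4+ and GFP+, and their RNA was amplified before hybridisation. Tissue is therefore the only labelled difference between the groups, and the labels do not say whether an array holds 1 animal or a pool. The spread behind each p-value is therefore that of these arrays and may be technical. Levels are log2 intensities, differences are pancreas minus spleen on the log2 scale, and a gene is past the test where limma's p, adjusted by Benjamini-Hochberg over all 19752 genes, is under 0.05.

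A T cell detects antigen through a variable TCR heterodimer that has no signalling part of its own. The CD3 chains and the zeta chain carry tyrosine motifs that Src-family kinases phosphorylate, which recruits the kinase ZAP-70. ZAP-70 phosphorylates the adaptors LAT and SLP76, on which phospholipase C gamma, Vav and exchange factors for Ras assemble, and calcium, diacylglycerol and protein kinase C theta then activate NFAT and NF-kB. Phosphatases, the kinase Csk, ubiquitin ligases and diacylglycerol kinases act against these steps, and Treg cells need a TCR signal to keep their suppressive function.

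The array values stood well above background for the whole list. All 36 members exceeded the background level, an intensity of 63.9, on all 6 arrays. That level is the 95th percentile of the mean log2 values of 1194 olfactory and vomeronasal receptor genes. The medians of the arrays lay between 82.0 and 92.0, and the interquartile range of an array between 2.23 and 3.07 on the log2 scale. The gene that defines the sorted cells, Foxp3, had a mean of 11.48 ± 0.16 on the pancreas arrays and 11.52 ± 0.32 on those of spleen (SD, n = 3 each), a difference of -0.04. Of Foxp3, Cd4, Ptprc (the gene of CD45) and Cd3e, 0 of the 4 passed the test. Cd3e was set beside the sorting markers but was not sorted on, and the TCR genes Trac, Trbc1 and Trbc2 were not measured.

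Treg cells of both tissues held transcripts of all the TCR machinery measured, and the receptor chains, Cd4, Cd28, Lat and Lcp2 each differed by 0.17 or less on the log2 scale in either direction. Themis, Txk, Grap2 and Prkcq had lower values in pancreas on all 3 arrays, and Malt1 and Icos had higher ones. None of the 36 members passed the test: 0 were higher in pancreas, where 0.547% of all genes were called, and 0 were lower, where 0.132% were, or 0.678% in either direction. At an unadjusted limma p under 0.05, 2 of 36 members were higher, against 3.2% of all genes. Lower were 4 of 36, against 3.64%, and 6 of 36 were past it in either direction, against 6.84%. The arrays of the tissues did not overlap for 3 of 36 members that were higher in pancreas, against 4.57% of all genes. The same held for 6 of 36 that were lower, against 5.81%, and for 9 of 36 in all, against 10.4%. Since all members were above background, the closer comparison is with the 11698 genes whose mean was. Of these, 4.45% were higher and 5.69% lower at an unadjusted limma p under 0.05. Without overlap, 5.76% were higher and 8.46% lower, 14.2% in all. Each of these shares was larger among the 36 members. The list was chosen with earlier results of these data known, and the excess was not tested. The median difference of the members was -0.07, beside -0.04 over genes above background, and it turned to 0.10 when each array was centred and scaled to a common interquartile range.

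**Figure D1:**
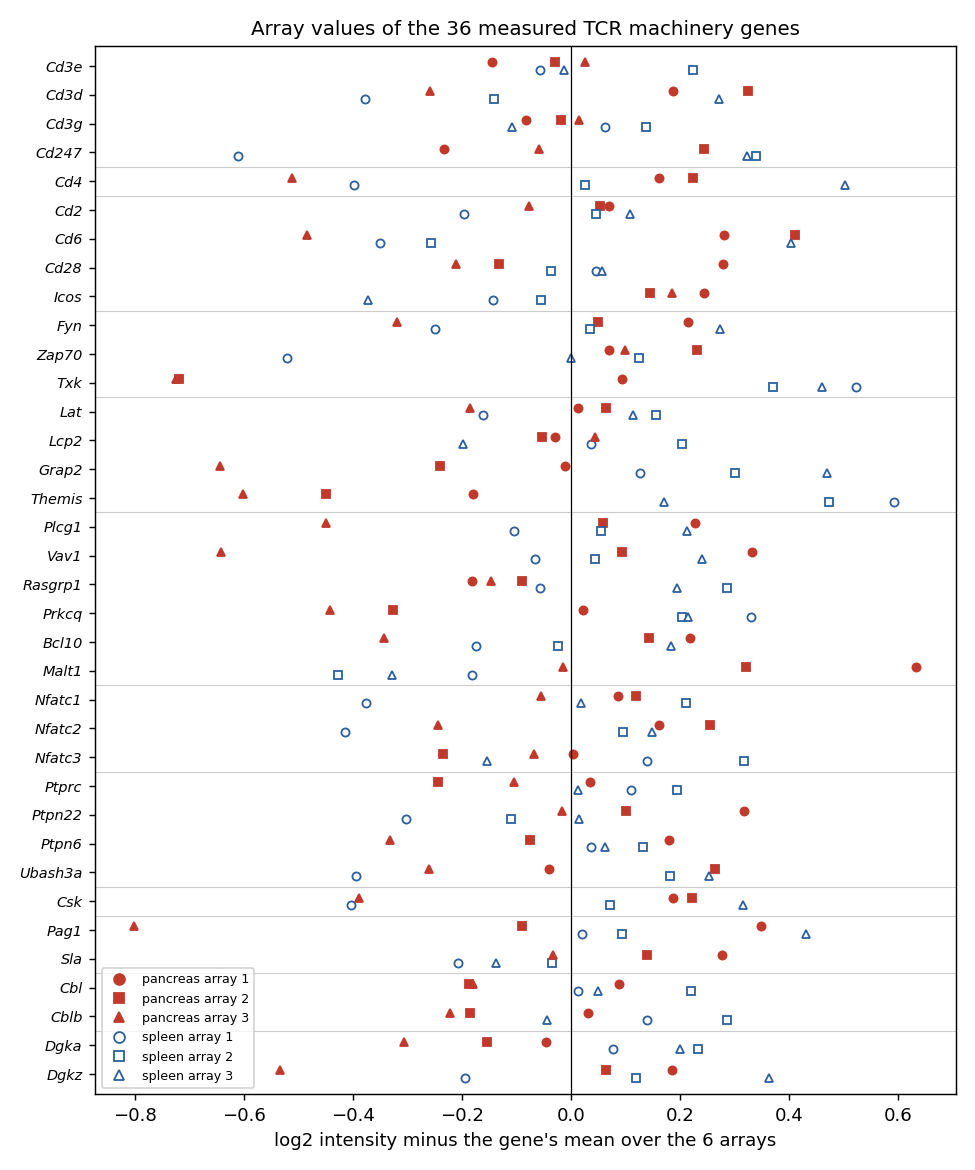
Each row is a member, ordered by role, and each point is 1 array, with filled red symbols for pancreas and open blue symbols for spleen. The x axis is the log2 intensity minus the gene's mean over the 6 arrays. The symbols of the tissues separate for 9 genes, among them Txk, Themis, Grap2 and Prkcq to the left in pancreas and Malt1 and Icos to the right, and mix for the other 27.

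The sequence upstream of the transcription start is shown for the 4 genes with lower values in pancreas and for Cd3e, whose tissues overlapped, so that their promoters can be read side by side. Promoters of the higher members Malt1 and Icos were missing from the sequences used, so they are neither shown nor counted below. Each is the 250 bases before the most upstream RefSeq start of GRCm38.p6, 5′ to 3′ on the strand of the gene. Capitals mark AGGAAG (an ETS core), GGAAA (an NFAT core), TGTGGT (a RUNX core) and CTTTGA (a TCF core), searched on both strands. AGGAAG and GGAAA share the letters GGAA and cannot match at the same place on 1 strand. The positions are chr10:28668110-28668359 on the plus strand for Themis, chr5:72752778-72753027 on the minus strand for Txk, chr15:80623233-80623482 on the plus strand for Grap2, chr2:11172132-11172381 on the plus strand for Prkcq and chr9:45009612-45009861 on the minus strand for Cd3e.
Themis: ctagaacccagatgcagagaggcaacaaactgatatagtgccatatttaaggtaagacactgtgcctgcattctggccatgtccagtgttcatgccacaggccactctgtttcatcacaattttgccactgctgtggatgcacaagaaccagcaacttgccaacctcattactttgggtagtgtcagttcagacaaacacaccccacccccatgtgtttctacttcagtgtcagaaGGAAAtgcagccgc
Txk: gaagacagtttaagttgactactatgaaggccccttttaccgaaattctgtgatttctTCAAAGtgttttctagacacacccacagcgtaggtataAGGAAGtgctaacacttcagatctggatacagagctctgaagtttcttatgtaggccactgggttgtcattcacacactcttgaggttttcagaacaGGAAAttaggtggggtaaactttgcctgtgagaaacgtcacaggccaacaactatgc
Grap2: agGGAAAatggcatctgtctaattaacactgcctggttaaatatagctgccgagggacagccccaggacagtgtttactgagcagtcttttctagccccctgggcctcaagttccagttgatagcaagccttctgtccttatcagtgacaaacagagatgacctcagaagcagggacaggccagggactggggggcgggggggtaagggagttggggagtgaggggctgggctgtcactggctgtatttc
Prkcq: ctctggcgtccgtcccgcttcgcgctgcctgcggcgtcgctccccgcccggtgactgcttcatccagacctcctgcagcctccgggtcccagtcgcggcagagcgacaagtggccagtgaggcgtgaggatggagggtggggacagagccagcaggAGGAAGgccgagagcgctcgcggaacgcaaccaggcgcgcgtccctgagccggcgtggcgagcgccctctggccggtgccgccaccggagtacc
Cd3e: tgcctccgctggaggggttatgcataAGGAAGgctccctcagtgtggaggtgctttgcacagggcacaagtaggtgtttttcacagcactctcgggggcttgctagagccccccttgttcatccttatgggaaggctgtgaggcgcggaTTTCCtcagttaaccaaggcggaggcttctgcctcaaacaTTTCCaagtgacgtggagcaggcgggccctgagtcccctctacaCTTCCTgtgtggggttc

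Among these 5 windows the RUNX letters had 0 matches, and the ETS letters had 2 matches in Cd3e, 1 each in Txk and Prkcq and 0 in Themis and Grap2. The NFAT letters had 2 matches in Cd3e, 1 each in Themis, Txk and Grap2 and 0 in Prkcq, and the TCF letters had 1 match, in Txk. Of the 28 promoters listed for the 37 genes, that of Lck included, 18 (64.3%) held the ETS letters, beside 29.2% of 27025 promoters of the same length. For the NFAT letters it was 19 (67.9%) beside 55.6%, for the TCF letters 7 (25%) beside 14.1%, and for the RUNX letters 1 (3.57%) beside 14.2%. None of the 4 motifs is present in all 4 lower genes and absent from Cd3e.

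The arrays of the tissues overlapped for all 4 receptor chains. Cd3e, the CD3 epsilon chain, was at 12.48, 12.60 and 12.65 on pancreas arrays 1 to 3 and at 12.57, 12.85 and 12.61 on spleen arrays 1 to 3. Cd3g, the CD3 gamma chain, was at 12.55, 12.61 and 12.65 in pancreas and at 12.70, 12.77 and 12.52 in spleen. The ranges of the tissues overlapped for both genes, and their differences were -0.10 (95% interval -0.46 to 0.26) and -0.06 (-0.41 to 0.29). With the arrays scaled to a common width these became 0.16 and 0.19, so neither has a settled direction.

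Cd3d, the CD3 delta chain, was at 9.93, 10.07 and 9.48 in pancreas and at 9.37, 9.60 and 10.02 in spleen. Cd247, the zeta chain with the largest share of the signalling motifs, was at 9.05, 9.53 and 9.22 in pancreas and at 8.67, 9.62 and 9.61 in spleen. These chains varied more within a tissue than Cd3e and Cd3g did, with an SD of 0.54 for Cd247 in spleen, where array 1 was low. Their differences were 0.17 (95% interval -0.32 to 0.65) and -0.03 (-0.61 to 0.54, and 0.11 with scaled arrays), and the intervals of all 4 chains excluded a 2-fold difference in either direction. The difference of Cd3d hung on single arrays and was 0.02 with spleen array 1 left out and 0.34 with spleen array 3 left out. Cd4, the coreceptor that binds MHC class II and is a sorting marker here, was at 11.54, 11.60 and 10.86 in pancreas and at 10.98, 11.40 and 11.88 in spleen. Its groups overlapped over nearly their whole range, with a difference of -0.09 (95% interval -0.67 to 0.49, and 0.10 with scaled arrays).

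Among the co-stimulatory receptors, Icos had higher values in pancreas. Icos, a relative of CD28 that supports effector Treg cells, was at 11.58, 11.48 and 11.52 in pancreas and at 11.19, 11.28 and 10.96 in spleen. The lowest pancreas array stood above the highest spleen array, and the difference was 0.38 ± 0.16 SE, or 1.30-fold (adjusted p = 0.667). Cd28, the receptor for CD80 and CD86, was at 11.39, 10.98 and 10.90 in pancreas and at 11.15, 11.07 and 11.16 in spleen. It showed no such separation, with a difference of -0.04 (95% interval -0.44 to 0.35, and 0.12 with scaled arrays). Within an array, Icos relative to Cd28 was 0.43 higher in pancreas, but the arrays overlapped (exact permutation test, two-sided p = 0.2, where 0.1 is the smallest that 3 against 3 arrays allow). Cd2, an adhesion receptor for CD48, differed by 0.03 and Cd6, a receptor that can both support and restrain the TCR, by 0.14, the latter with an SD of 0.48 in pancreas.

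Among the kinases next to the receptor, Txk stood apart. Txk, a Tec-family kinase of T cells that acts on phospholipase C gamma, was at 9.20, 8.39 and 8.38 in pancreas and at 9.63, 9.48 and 9.57 in spleen. All 3 spleen arrays lay close together and above every pancreas array, of which array 1 was nearest to them. Its difference of -0.90 ± 0.23 SE (1.87-fold lower, adjusted p = 0.151 in limma) was the lowest among the members. Without pancreas array 1 it was -1.17, and Txk was then the 1 member past the test. Its adjusted p was 0.0266 in that fit and reached 0.685 across the alternatives. Zap70, the kinase that docks on the phosphorylated CD3 and zeta motifs, was at 9.52, 9.68 and 9.55 in pancreas and at 8.93, 9.58 and 9.45 in spleen. Pancreas arrays 1 and 3 fell just below spleen array 2, so the groups overlapped, and the difference was 0.27 (95% interval -0.17 to 0.70), or 0.07 without spleen array 1, where Zap70 was lowest. Fyn, a Src-family kinase, differed by -0.04 (95% interval -0.48 to 0.41, and 0.11 with scaled arrays).

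Among the adaptors, Themis and Grap2 had lower values in pancreas and Lat and Lcp2 overlapped between the tissues. Themis, a T cell adaptor that binds Grb2 and the phosphatase of Ptpn6 and tunes the TCR signal, was at 8.86, 8.59 and 8.44 in pancreas and at 9.64, 9.52 and 9.21 in spleen. The tissues were separated by a gap, with means of 8.63 ± 0.21 and 9.46 ± 0.22 (SD, n = 3 each). The difference was -0.82 ± 0.18 SE (1.77-fold lower), and its adjusted p of 0.101 was the smallest among the members, running from 0.0721 to 0.441 with 1 array left out. In RNA from sorted populations, fewer cells with a transcript and less transcript per cell cannot be told apart. Grap2, also called Gads, the adaptor that holds SLP76 at LAT, was at 10.11, 9.88 and 9.48 in pancreas and at 10.25, 10.42 and 10.59 in spleen. Its arrays did not overlap, but pancreas array 1 and spleen array 1 were close, and the difference was -0.60 ± 0.20 SE (1.51-fold lower, adjusted p = 0.388).

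The adaptors that Grap2 links showed no such gap. Lat, the membrane scaffold phosphorylated by ZAP-70, was at 10.87, 10.93 and 10.68 in pancreas and at 10.70, 11.02 and 10.97 in spleen. The groups overlapped, with a difference of -0.07 (95% interval -0.44 to 0.30, and 0.10 with scaled arrays). Lcp2, the gene of SLP76, differed by -0.03 (95% interval -0.40 to 0.34, and 0.19 with scaled arrays). Grap2 relative to Lcp2 on the same array was 0.57 lower in pancreas, with no overlap (exact permutation test, two-sided p = 0.1, the smallest that this design allows). With Lcp2 at -0.03, this pair mostly restates the difference of Grap2. In all 5 pairs were set against each other, chosen after their values were seen, and the adjusted p over these 5 exact permutation tests was 0.25 or more for each.

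**Figure D2:**
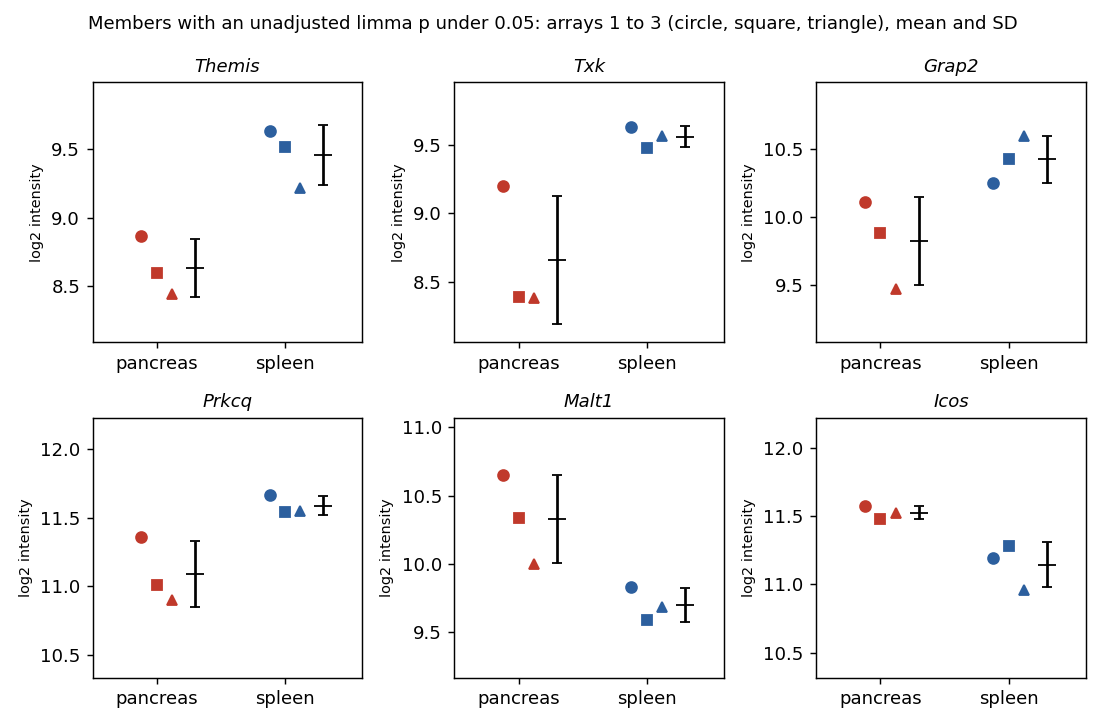
Log2 intensity on each array for the 6 members with an unadjusted limma p under 0.05, with arrays 1 to 3 as circle, square and triangle. The bars beside the points are mean and SD of 3 arrays, and every panel spans the same log2 range. Pancreas lies lower for Themis, Txk, Grap2 and Prkcq and higher for Malt1 and Icos, and pancreas array 1 is the highest of the pancreas arrays in all 6 panels.

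Behind the adaptors, Prkcq had lower and Malt1 higher values in pancreas. Prkcq, protein kinase C theta, which links diacylglycerol to NF-kB at the synapse, was at 11.36, 11.01 and 10.90 in pancreas and at 11.67, 11.54 and 11.55 in spleen. Every pancreas array was below every spleen array, with a difference of -0.50 ± 0.17 SE (1.41-fold lower, adjusted p = 0.445). Malt1, a paracaspase that works in a complex with Bcl10 on the way to NF-kB, was at 10.65, 10.34 and 10.00 in pancreas and at 9.84, 9.59 and 9.69 in spleen. It was the member with the highest difference, 0.63 ± 0.19 SE (1.54-fold higher, adjusted p = 0.318). With 1 array left out, the adjusted limma p of Malt1 ran from 0.0514 without pancreas array 3 to 0.999985 without spleen array 2. It was under 0.05 only with array weights, described below. Bcl10, the binding partner of Malt1, differed by 0.01 (95% interval -0.42 to 0.44). Within an array, Malt1 relative to Bcl10 was 0.61 higher in pancreas without overlap of the tissues. The exact permutation test gave a two-sided p of 0.1, the smallest that this design allows, and 0.25 adjusted over the 5 pairs. This pair was also chosen after its values were seen, and with Bcl10 at 0.01 it mostly restates the difference of Malt1.

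Rasgrp1, the exchange factor that turns diacylglycerol into Ras activity, was at 11.39, 11.48 and 11.43 in pancreas and at 11.52, 11.86 and 11.77 in spleen. The pancreas arrays lay close together and just below spleen array 1, and the difference was -0.28 (95% interval -0.64 to 0.08, adjusted p = 0.966), or -0.07 with scaled arrays. Plcg1, the phospholipase that makes diacylglycerol, and Vav1, an exchange factor for Rac, differed by -0.11 and -0.15, with overlap and with pancreas array 3 low for both (9.08 and 8.96). Without that array the differences turned to 0.09 and 0.14. The NFAT genes, which encode the calcium-driven transcription factors, differed by 0.10 for Nfatc1, 0.11 for Nfatc2 and -0.20 for Nfatc3, and all 3 overlapped. Those of Nfatc1 and Nfatc2 reached -0.06 with 1 array left out.

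The phosphatases showed no separation between the tissues. Ptprc, the gene of CD45, which removes the inhibitory phosphate of Lck but can also dampen signalling, was at 11.82, 11.54 and 11.68 in pancreas and at 11.90, 11.98 and 11.80 in spleen. Pancreas array 1 reached into the spleen range, and the difference was -0.21 (95% interval -0.57 to 0.15), close to 0 with scaled arrays. Ptpn22, which dephosphorylates Lck and ZAP-70 and is a risk gene of autoimmune diabetes, differed by 0.27 (95% interval -0.11 to 0.64). Ptpn6, the gene of the phosphatase SHP1, differed by -0.15, and Ubash3a, a negative regulator of TCR signalling also linked to autoimmune diabetes, by -0.03 (0.09 with scaled arrays). Csk, the kinase that places the inhibitory phosphate on Lck, differed by 0.01 and its membrane anchor Pag1 by -0.36, with an SD of 0.58 in pancreas, the largest of any member in that tissue. Pag1 ran from -0.05 without pancreas array 3 to -0.63 without pancreas array 1, and Csk was at -0.19 without spleen array 1.

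Of the remaining brakes, 1 stood higher and 1 lower in pancreas without overlap. Sla, the Src-like adaptor that directs TCR chains to degradation, was at 11.93, 11.80 and 11.62 in pancreas and at 11.45, 11.62 and 11.52 in spleen. Pancreas array 3 and spleen array 2 met at nearly the same value, and the difference was 0.25 (95% interval -0.10 to 0.61, adjusted p = 1.000). Dgka, a diacylglycerol kinase that removes the lipid on which Rasgrp1 and Prkcq depend, was at 12.23, 12.12 and 11.97 in pancreas and at 12.35, 12.51 and 12.47 in spleen. The difference was -0.34 (95% interval -0.69 to 0.01, adjusted p = 0.782), or -0.12 with scaled arrays. Dgkz, the other diacylglycerol kinase on the list, differed by -0.19 on its brighter probe set and by -0.05 on its dimmer one.

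The ubiquitin ligases had slightly lower means in pancreas. Cblb, which sets the requirement for CD28 co-stimulation, was at 11.10, 10.89 and 10.85 in pancreas and at 11.21, 11.36 and 11.03 in spleen. The groups overlapped through pancreas array 1 and spleen array 3, with a difference of -0.25 (95% interval -0.62 to 0.12). Its relative Cbl differed by -0.19 (95% interval -0.55 to 0.18). Within an array, Cblb relative to Cbl differed by -0.07 and Dgka relative to Dgkz by -0.15, both with overlap (exact permutation tests, two-sided p = 0.4 and 0.5).

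**Figure D3:**
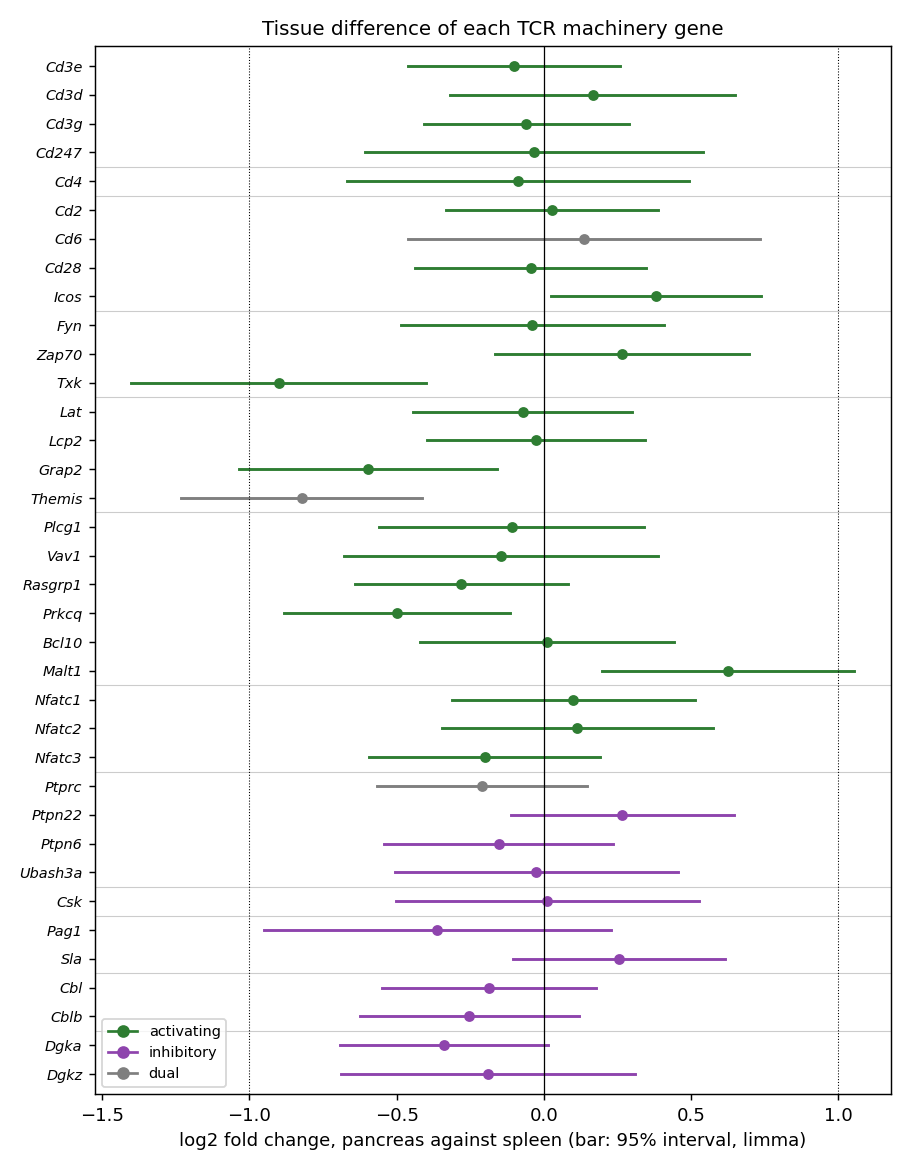
Points are log2 fold changes of the 36 members, pancreas against spleen, and bars are their 95% intervals from limma, coloured by class, with dotted lines at a 2-fold difference. The intervals lie inside the dotted lines for 32 members, and those of Txk, Themis, Grap2 and Malt1 cross one of them.

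Set against each other, activating and inhibitory members did not part by tissue. The median difference was -0.04 over the 23 activating members, of which 8 had a higher and 15 a lower mean in pancreas, and -0.17 over the 10 inhibitory members, of which 3 were higher and 7 lower. Of the 11698 genes above background, 4758 had a higher and 6940 a lower mean in pancreas, so these splits are near that of expressed genes at large. The medians were thus 0.13 apart, with the activating one nearer to 0. Class medians on single arrays, each gene taken relative to its mean over the 6 arrays, put activating minus inhibitory members at -0.10, 0.06 and 0.10 in pancreas and at -0.05, -0.0010 and 0.02 in spleen. These ranges overlap, with pancreas array 1 the lowest of the 6 and pancreas array 3 the highest. With arrays scaled to a common width the medians were 0.11 and -0.06, so the sign of the activating median depends on that choice. Without pancreas array 3 they were 0.07 and 0.0022. As members are not replicates, these medians carry no test.

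The levels of most members followed the width of the arrays. Pancreas array 3, the narrowest with an interquartile range of 2.23, was the lowest pancreas array for 26 of the 36 members. It was the highest for 3, Cd3e, Cd3g and Lcp2. The receptor chains did not follow the width in pancreas, with median deviations from their 6-array means of -0.11, 0.11 and -0.02 on arrays 1 to 3. Spleen array 1, the narrowest in spleen at 2.49, was the lowest spleen array for 25. The median deviation of the members from their 6-array means was 0.09, 0.06 and -0.23 on pancreas arrays 1 to 3 and -0.12, 0.13 and 0.16 on spleen arrays 1 to 3. Genes above background moved the same way, at 0.07, 0.03 and -0.18 in pancreas and -0.02, 0.04 and 0.08 in spleen. Cd3d, Cd4, Cd6, Vav1, Csk and Dgkz are examples in the plot of array values, with pancreas array 3 and spleen array 1 the lowest of their tissues. With the arrays scaled to a common width 0 members passed, and 21 of 36 had a higher mean in pancreas, against 12 of 36 as deposited.

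**Figure D4:**
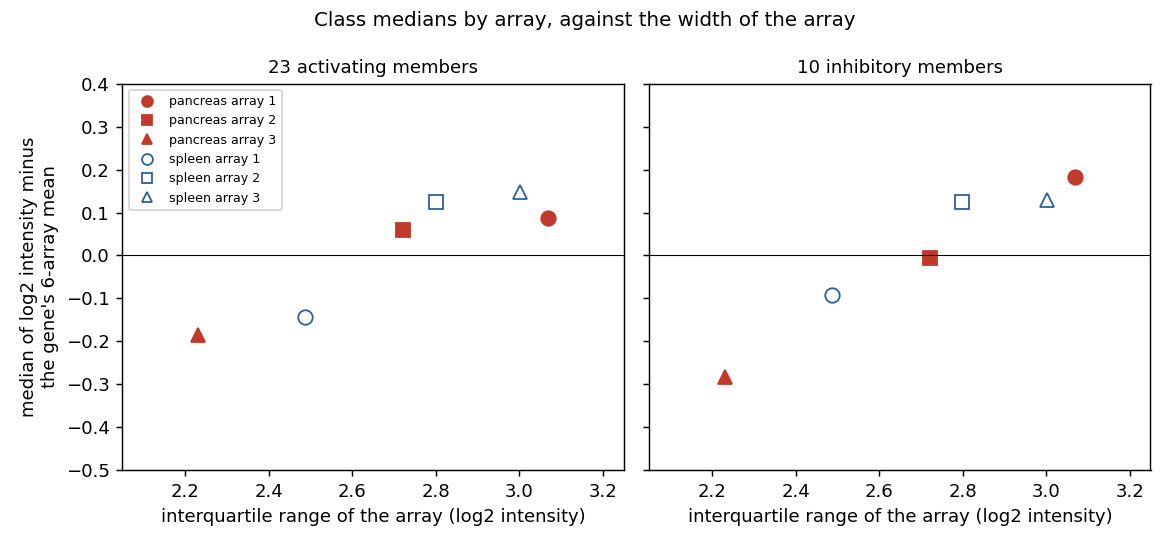
The x axis is the interquartile range of each array's log2 intensities, and the y axis is the median, over the members of a class, of the log2 intensity minus the gene's 6-array mean, with 23 activating members on the left and 10 inhibitory ones on the right. In both classes pancreas array 3 and spleen array 1, the narrowest arrays, have the lowest medians.

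Weighting the arrays by their estimated quality changed the calls. With limma's default array weights 16 members passed, 5 higher and 11 lower in pancreas, but 36.5% of all genes passed with them. The 5 were Malt1, Icos, Cd3d (0.42), Cd6 and Ptpn22, and the 11 were Themis, Txk, Grap2, Prkcq, Rasgrp1, Nfatc3, Ptprc, Cbl, Cblb, Dgka and Cd3e (-0.21). That fit gave pancreas array 2 a weight of 9.50 and spleen array 2 one of 5.69, against 0.24 to 0.65 for the other 4, and the estimation stopped before reaching its tolerance. With the gene-by-gene method of weighting, added after seeing the data, 5 members passed, beside 8.46% of all genes: Malt1 higher, and Themis, Txk, Grap2 and Prkcq lower. Across the 17 alternative settings the log2 difference ran from -0.94 to -0.73 for Themis, -1.17 to -0.76 for Txk and -0.74 to -0.42 for Grap2. For Prkcq it ran from -0.63 to -0.34 and for Malt1 from 0.47 to 0.79. No sign changed, but the arrays of these 5 do not overlap, so leaving out or weighting arrays cannot turn the sign. Several other settings leave the difference as it was.

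Other genes of the pathway, on lists drawn up beside the members, also had 0 calls. Of 35 further activating genes measured, 0 passed the test in either direction, and 1 was higher and 5 lower at an unadjusted limma p under 0.05, beside 4.45% and 5.69% of genes above background. Their median difference was -0.19, beside -0.04 over genes above background, and 25 of 35 had a lower mean in pancreas, beside 6940 of 11698. The lowest were Trat1, an adaptor that binds the zeta chain, at -0.74 (adjusted p = 0.167) and Tespa1, a regulator of TCR calcium signals in thymocytes, at -0.67 (adjusted p = 0.136). Pik3r1, the regulatory subunit of phosphoinositide 3-kinase, was at -0.47 and the NF-kB gene Rel at -0.40, and neither passed. The 1 higher gene was Txk's relative Tec, at 0.43 (adjusted p = 0.646), which is named after its value was seen.

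Of 21 further inhibitory genes, 0 passed. At an unadjusted limma p under 0.05, 1 was higher and 2 were lower, beside 4.45% and 5.69% of genes above background. Their median was 0.08, and 13 of 21 had a higher mean in pancreas, beside 4758 of 11698 genes above background. The further activating genes, at -0.19, thus had the lower median, whereas among the members the inhibitory ones did (-0.17, beside -0.04). This contrast carries no test. The co-inhibitory receptor genes Cd96 and Btla were at -0.62 (adjusted p = 0.195) and -0.50 (adjusted p = 0.431), and Ptprj, a receptor phosphatase, was at 0.43 (adjusted p = 0.682). The call of Cd96 changed with quantile normalization, where it was the 1 further pathway gene past the test. Over 12 genes that TCR signals induce, the median was 0.41 and 12 of 12 had a higher mean in pancreas, beside 4758 of 11698 genes above background. Of these, 1 passed, Nr4a2 (1.85, adjusted p = 0.00952), while Nr4a1, a reporter of recent TCR engagement, was at 1.10 (adjusted p = 0.188). The arrays stood higher in pancreas without overlap for 5 of the 12, beside 5.76% of genes above background. They overlapped for Irf4 (0.61), Cd69 (0.34), Egr1 (0.30), Egr2 (0.25), Egr3 (0.15), Rcan1 (0.09) and Myc (0.07). This list was chosen with earlier results of these data known.

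**Figure D5:**
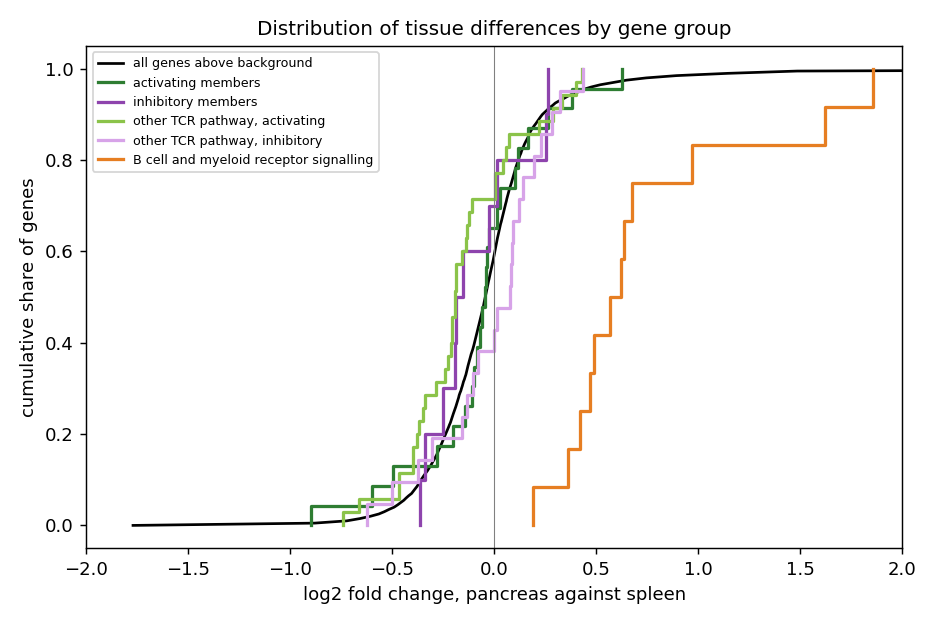
Cumulative share of genes (y axis) below a given log2 fold change, pancreas against spleen (x axis), for all genes above background (black), the activating and inhibitory members, the further pathway lists, and the receptor signalling genes of B and myeloid cells. The member curves run close to the black curve, with medians of -0.04 and -0.17, whereas the orange curve of B and myeloid signalling genes lies to the right, with a median of 0.60.

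Genes that serve antigen and Fc receptors of B and myeloid cells in place of this machinery had higher values in pancreas. Of 12 measured, 12 had a higher mean, beside 9837 of all 19752 genes. At an unadjusted limma p under 0.05, 10 were higher, beside 3.2% of all genes, and 2 passed the test. Btk and Blnk, signalling proteins of B cells, had means below background, and Blnk is among the 10. Plcg2, the B and myeloid counterpart of Plcg1, was at 6.97, 6.75 and 6.69 in pancreas and at 5.74, 6.02 and 5.73 in spleen, where 1 array of 3 was above background. Its fitted difference of 0.97 (adjusted p = 0.0323) therefore rests on spleen values near or below background. Cd79a, a B cell receptor chain, passed as well (1.86, adjusted p = 0.0482), again with 1 spleen array of 3 above background, and Syk, the counterpart of Zap70, was at 0.64 (adjusted p = 0.469) with 2 of 6 arrays above background.

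Markers of other cells stood beside these values. The summed intensity of the 10 measured B cell markers was 2066 to 3515 on the pancreas arrays and 683 to 926 on the spleen arrays. Past the test were 4 of 10, all higher in pancreas: Jchain and the MHC class II presentation genes Cd74, H2-Aa and H2-Ab1. The latter are not particular to B cells. Ms4a1 (adjusted p = 0.0678), Fcrla (0.146), Pax5 (0.332) and Cd22 (0.877) did not pass, and Cr2 and Ebf1 had means below background. The sum of 14 acinar markers was 15167 to 31383 against 1182 to 3027, with 12 past the test. The 14 macrophage and dendritic cell markers summed to 907 to 993 against 682 to 847, with 1 past the test, Lyz2, and 10 with means below background, Csf1r, Adgre1 and C1qa among them. The 10 CD8 T and NK cell markers summed to 925 to 1101 against 875 to 1017, with 5 below background and 1 of these, Klrd1, past the test, and the 9 islet markers to 568 to 777 against 609 to 705, with 0 past the test. Ptpn6, Ptprc, Vav1 and Csk are examples of members that are also expressed by B and myeloid cells. The part of other cells in the values of any member was not tested, that of Malt1, the member with the highest difference, included. With the genes of these lists left out of the fit, 0 members passed. Leaving them out does not alter the members' array values or differences, so it cannot show what part other cells have in them.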

How the data were processed

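Gene expression of Treg cells from pancreas (3 arrays) and spleen (3 arrays) was measured on Affymetrix Mouse Gene 1.0 ST arrays. The authors deposited linear intensity values per probe set. The submitters' processing notes name RMA and Affymetrix Power Tools, with no versions. RMA corrects background, normalizes between arrays and summarises probes, but the deposited arrays differ in width. Here values were taken to log2 with no pseudocount and no further normalization.

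Of 24922 probe sets, 21425 name 1 gene, 1399 several and 2098 none in the platform annotation, and those naming 1 gene were used. Where a gene had several, as 921 did, the one with the highest 6-array mean stood for it. RefSeq gene IDs matched 21347 probe sets and updated 0 symbols. Genes were compared with limma 3.58.1 in R 4.3.3 (lmFit and eBayes, two-sided, no covariates), and 95% intervals use the moderated standard error with 4 residual and 6.58 prior degrees of freedom. Pairs of members were compared within arrays by exact permutation. The fit was tested on simulated data. Medians over members are descriptions. The members and gene lists were chosen with earlier results of these data known. Members with an unadjusted p under 0.05, members whose arrays do not overlap, the receptor chains, Cd4, Zap70, Lat, Cd28, Ptprc and Cblb are given array by array. Of the further pathway lists those past the test and up to 4 with the smallest p are named, and Tec besides. TCR-induced genes whose arrays overlap are named too.

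The labels give both groups replicate numbers 1 to 3. Deviations of same-numbered arrays from their tissue means correlated at -0.46, 0.11 and -0.68, and the arrays were treated as unpaired. The differing widths of the arrays also enter these correlations, so they cannot show whether the numbers pair the arrays. Alternatives covered normalization, array width, background, several probe sets, the variance model, array weights, the replicate block, genes of other cells and each array left out. Plots and the promoter search used Python 3.11.15 with matplotlib 3.10.9. Promoter sequences are from RefSeq (GRCm38.p6).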

Additional observations from a re-analysis of the deposited data

How the results depend on the processing

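With no call among the members as reported, 0 to 1 members were lower and 0 higher with 1 array left out, the 1 being Txk without pancreas array 1. Default array weights gave 5 members higher and 11 lower, and gene-by-gene weights, chosen after seeing the data, 1 higher and 4 lower. The other alternatives gave 0. Further pathway genes past the test, 0 as reported, were 1 with quantile normalization, 30 with default and 11 with gene-by-gene weights. Over all genes, the count of 134 became 38 with centred arrays, 71 with scaled arrays, 212 with quantile normalization, 88 without genes of other cells, 3 with low values set to background, 7206 and 1671 with the respective weights, and 64 to 262 with 1 array left out. The replicate block, whose numbers are not known to pair the arrays, left 0 members and 132 genes past the test. The medians of the activating and inhibitory members, and the difference between them, moved by less than the spread between arrays in each alternative, although the activating median changed sign with scaled arrays and both medians did so without pancreas array 3. The 6 members with an unadjusted p under 0.05 kept their sign throughout. As their arrays do not overlap, leaving out or weighting arrays could not have turned it. Of the 36 members, 18 changed sign in at least 1 alternative. The number of arrays, 3 a tissue, limits the precision of every value.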
